A study of Homo sapiens with 48 samples.

Results

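DEGS1 and GLTP encode a pair of proteins that act on sphingolipids, the membrane lipids built on a ceramide backbone. Both genes were chosen by symbol from a pooled CRISPR knockout screen in squamous carcinoma cells, and they are 2 of the 327 genes for which the authors deposited values. The choice was made with their values known, so everything given for these genes is a description and no test was applied to them.

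The screen used 3 human lines with stable Cas9 expression. These were the epidermoid carcinoma line A-431 (written A431), the tongue carcinoma line CAL27 and the skin carcinoma line SCC-13 (written SCC13). Guide virus was added at a multiplicity of infection of 0.3, and the guide library was designed against 334 genes with 136 non-targeting guides. Each line and setting had 2 initial samples, frozen after puromycin selection, and later samples. For A431 these were 8 tumors and 2 cultures, for CAL27 10 tumors and 2 cultures, and for SCC13 16 tumors with no culture. Cultures were kept for 3 weeks. Tumors were grown from cells in Matrigel in the rear flanks for about 2 months, in SHO mice for A431 and CAL27 and in NOD.Cg-Prkdcscid Il2rgtm1Wjl/SzJ mice for SCC13. Both kinds of host lack an adaptive immune system. The labels do not tell which tumors shared a mouse, nor whether a Cas9 line was a single clone.

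DEGS1 is the dihydroceramide desaturase of the endoplasmic reticulum, which places the double bond that turns dihydroceramide into ceramide in the last step of de novo synthesis. GLTP is the cytosolic glycolipid transfer protein, which binds glycosphingolipids such as glucosylceramide and can carry them between membranes. In stratified epithelium, glucosylceramides are the stored precursors of the ceramides that seal the outer skin barrier, and ceramide and its derivatives also act as signals in growth and cell death. In the GENCODE annotation of GRCh37, DEGS1 (ENSG00000143753) lies on the plus strand at chr1:224363458-224381143, and its reference transcript has 3 exons and codes for 323 amino acids. GLTP (ENSG00000139433) lies on the minus strand at chr12:110288750-110318346, with 5 exons and 209 amino acids. These positions come from the annotation alone. Where in the genes the guides cut was not analysed here.

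Each value is a log fold change per gene between initial and later cells, on a log scale whose base is not stated, and is given in log units. The row of the non-targeting guides was 0 in all 38 value columns, so the deposited values are relative to those guides. Values were also centred on the median of the 327 genes of their column, and unless stated otherwise the centred value is given. The tables do not write out the direction. It is read as later over initial cells, since DUT, an enzyme that DNA replication depends on and that was picked after its values were seen, stood at -2.13 and -3.00 in A431 and CAL27 culture. A value above 0 then means that cells with the knockout took a larger share than cells with the median knockout. The column median as deposited ran from -0.37 to -0.36 in A431 culture, -0.49 to -0.47 in CAL27 culture, -0.55 to -0.07 in A431 tumors, -1.50 to -0.56 in CAL27 tumors and -2.67 to 0.53 in SCC13 tumors. The 0.53 belongs to value column 3, which stands apart from the other SCC13 tumors. The SD over the genes of a column was 0.50 to 0.51 in A431 culture and 0.57 to 0.59 in CAL27 culture. In tumors it was 0.42 to 1.34 for A431, where the range took in the culture values, 1.09 to 2.23 for CAL27 and 1.89 to 2.87 for SCC13. No read counts were given, so the depth behind each value is unknown. Value columns carry no replicate number, and each is a tumor or culture of its table.

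DEGS1 knockouts stood above the median knockout in all 34 tumors, in every line. They also stood above the non-targeting guides in all 34 tumors. CALML3 was the only other gene above the median in every tumor (2 of 327 genes, 0.612%), and DEGS1 was the 1 gene above the non-targeting guides in every tumor (0.306%). Since the gene was picked for its values, nothing is read from these shares. GLTP knockouts were below the median in 24 of 34 tumors, and 23.2% of genes were so in at least as many. They were below the non-targeting guides in 30 of 34 tumors, as 23.9% of genes were in at least as many. The median gene of a column was itself below those guides in 33 of 34 tumors, more often than GLTP. In all 4 cultures GLTP was below both. Being below the non-targeting guides in both cultures of a line was common, at 86.5% of genes in A431 and 95.7% in CAL27.

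**Figure D1:**
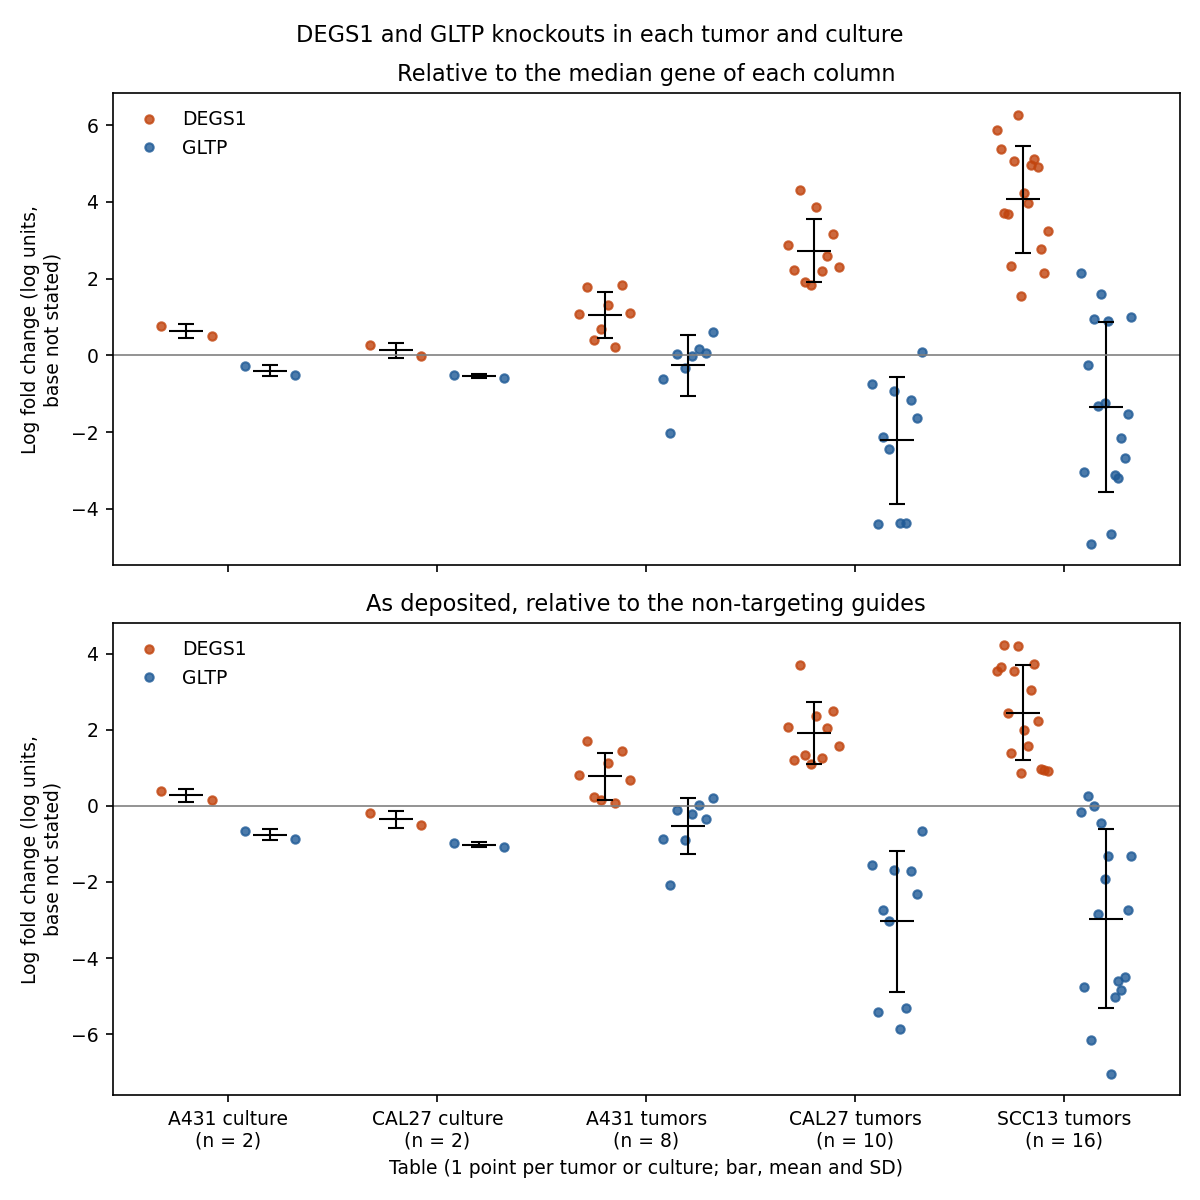
Log fold change (log units, base not stated) of the DEGS1 and GLTP knockouts in each table, 1 point per tumor or culture, with the mean and SD as black bars; the upper panel is relative to the median gene of a column and the lower panel to the non-targeting guides. DEGS1 lies above 0 in all 34 tumors in both panels, while GLTP lies below 0 in 24 of them in the upper panel and in 30 in the lower, where the median gene of a column lies below 0 in 33.

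DEGS1 in A431 tumors ranged from 0.21 to 1.83 with a median of 1.09, and its mean was 1.05 ± 0.59 (SD, n = 8). All 8 tumors were above the median knockout, as were 5.81% of all genes in every A431 tumor. Its mean was the 4th highest of 327, between JUP, a plaque protein of desmosomes, at 1.09 and the stress-response gene DDIT4 at 1.03. The tumors did not place it alike. It ranked 7th in value column 2 and 137th in value column 6, where it was lowest, and it was among the top 33 genes in 5 of 8 tumors. Set against the non-targeting guides it ran from 0.064 to 1.70 with a mean of 0.78 ± 0.61, above them in 8 of 8 tumors (2.14% of genes).

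In CAL27 tumors, DEGS1 had the highest mean of all 327 genes. Its values ran from 1.84 to 4.30 with a median of 2.46 and a mean of 2.73 ± 0.83 (SD, n = 10). The next gene was ADM, which encodes the precursor of the peptide hormone adrenomedullin, at 2.52. All 10 tumors were above the median (6.73% of genes were so in every CAL27 tumor), and in all 10 DEGS1 was among the top 33 genes, with ranks from 1 to 33. As deposited it ran from 1.09 to 3.71 with a mean of 1.91 ± 0.81, above the non-targeting guides in all 10 tumors (0.917% of genes).

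In SCC13 tumors, DEGS1 ran from 1.54 to 6.26 with a median of 4.09 and a mean of 4.07 ± 1.40 (SD, n = 16). This mean was the 3rd highest, below ADM at 4.72 and above TPM2, a tropomyosin of actin filaments, at 3.96. All 16 tumors were above the median (4.28% of genes), and in 14 of 16 DEGS1 was among the top 33 genes. Value column 8 gave the lowest centred value, and the lowest place was rank 59 in value column 15. As deposited the values ran from 0.87 to 4.23 with a mean of 2.45 ± 1.25, above the non-targeting guides in all 16 tumors (0.612% of genes). The deposited column median was -2.05 in value column 7, which had the highest centred DEGS1, and -0.67 in value column 8, which had the lowest. Without value column 3 the centred mean was 4.09.

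Culture differed between the lines. In A431 culture DEGS1 stood at 0.77 and 0.52, ranks 2 and 10, with a mean of 0.64 ± 0.18 (SD, n = 2). Both were above the median, as were 35.8% of genes in both A431 cultures. Both values were also above the non-targeting guides, at 0.40 and 0.16 (3.67% of genes were above them in both A431 cultures). In CAL27 culture it stood at 0.27 and -0.018, ranks 42 and 173, with a mean of 0.13 ± 0.21, and at -0.20 and -0.51 against the non-targeting guides. The share of genes above those guides in both CAL27 cultures was 0.0%. DEGS1 was thus near the top in both A431 cultures. In CAL27 culture its mean ranked 87th of 327, and the 2 cultures placed it differently.

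Tumors and culture can be set side by side in A431 and CAL27, each table against its own initial cells. In CAL27 the DEGS1 mean was 2.60 log units higher in tumors than in culture, and the lowest tumor at 1.84 lay above the higher culture at 0.27. Every tumor was above every culture for 6.12% of the genes of this line. The deposited values were separated too, with a difference of 2.27, as for 3.06% of genes. In A431 the difference was 0.41, less than the SD of 0.59 among tumors. There 5 of 8 tumors were above both cultures while 2 were below both, and the share of all genes with such counts was not computed. The gap between settings in CAL27 was not tested, and the difference in size between the lines was not tested either.

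By order of the means, DEGS1 was highest in SCC13 tumors, then in CAL27 tumors, A431 tumors, A431 culture and CAL27 culture. SCC13 and CAL27 tumors overlapped, with 7 of 16 SCC13 tumors above the highest CAL27 tumor. The lowest CAL27 tumor, at 1.84, and the highest A431 tumor, at 1.83, just failed to meet. As deposited they did overlap, and 5 of 10 CAL27 tumors were above the highest A431 tumor. How many of all genes separate the lines to this degree was not computed, so nothing is read from these counts. Tables differ in how widely genes spread. Divided by the SD of its column, DEGS1 stood at 1.16 ± 0.51 in tumors of A431, 1.61 ± 0.36 in those of CAL27 and 1.74 ± 0.57 in those of SCC13, and at 1.27 ± 0.33 and 0.22 ± 0.36 in A431 and CAL27 culture. On that scale the tumors of all 3 lines overlapped, and A431 culture was no lower than A431 tumors. How much of the order in log units comes with the wider spread of the CAL27 and SCC13 tables was not tested.

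**Figure D2:**
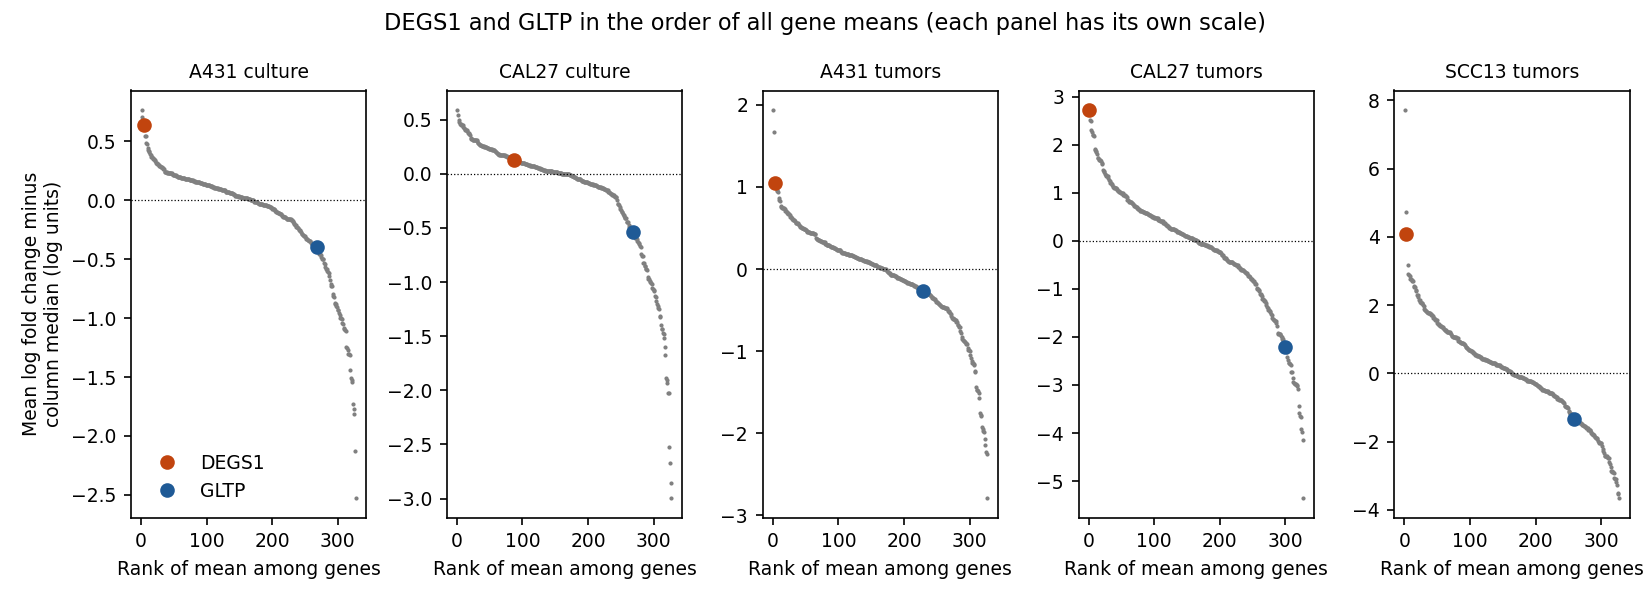
Mean log fold change relative to the column median (log units) of every gene, ordered from highest to lowest, 1 panel per table with its own vertical scale; DEGS1 and GLTP are coloured. DEGS1 is 4th, 1st and 3rd in A431, CAL27 and SCC13 tumors, 5th in A431 culture and 87th in CAL27 culture, while GLTP lies between places 229 and 300 in all 5 tables.

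By its mean, GLTP was lowest in CAL27 tumors. There it ran from -4.40 to 0.08 with a median of -1.89 and a mean of -2.21 ± 1.65 (SD, n = 10), and 9 of 10 tumors were below the median knockout (18.0% of genes were so in at least 9). Value column 10 was the exception at 0.08. The mean was 300th of 327, between the tubulin gene TUBB4B at -2.17 and SLC2A1, the glucose transporter GLUT1, at -2.30. Against the non-targeting guides all 10 tumors were below 0, from -5.87 to -0.67 (26.9% of genes were below them in every CAL27 tumor), with a mean of -3.03 ± 1.85.

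In SCC13 tumors GLTP spread more widely than in the other lines, from -4.91 to 2.16, with a median of -1.42 and a mean of -1.34 ± 2.22 (SD, n = 16). It was below the median in 11 tumors (30.9% of genes were so in at least 11) and above it in value columns 1, 5, 7, 9 and 16. As deposited only value columns 3 and 5 were above 0, at 0.27 and 0.0087, and the mean was -2.96 ± 2.35. Being below 0 in at least 14 of these tumors held for 39.1% of genes. Without value column 3 the centred mean was -1.42. The mean was the 259th, between MYC at -1.28 and the centromere protein gene CENPF at -1.37.

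In A431 tumors GLTP was split evenly, with 4 tumors above and 4 below the median knockout (58.1% of genes were below it in at least 4). The values ran from -2.02 to 0.62 with a median of 0.012 and a mean of -0.26 ± 0.79 (SD, n = 8). That mean rests on value column 2 at -2.02, and without it the mean was -0.012. As deposited 6 of 8 tumors were below 0, with a mean of -0.54 ± 0.74. Of all genes, 49.8% were below 0 in at least 6 of these tumors, and the median gene was below 0 in all 8. The distance of the GLTP mean from the median gene was thus less than the SD among these tumors.

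In culture GLTP was lower than the median in both lines and varied little. It stood at -0.29 and -0.51 in A431 culture, a mean of -0.40 ± 0.16 (SD, n = 2), and at -0.50 and -0.58 in CAL27 culture, a mean of -0.54 ± 0.06. Both cultures were below the median for 35.8% of genes in A431 and 40.1% in CAL27. With ranks of 248 to 273 over the 4 cultures, it was never among the lowest 33 genes there. In CAL27, tumors had a GLTP mean 1.67 log units lower than culture, and 9 of 10 tumors were below both cultures and 1 was above both. In A431 the tumor mean was 0.13 higher than the culture mean, with 5 tumors above both cultures and 2 below both. The shares of all genes with such counts were not computed, so nothing is read from these counts. The SD over the genes of a column was 1.09 to 2.23 in CAL27 tumors and 0.57 to 0.59 in CAL27 culture. The order of the GLTP means was CAL27 tumors lowest, then SCC13 tumors, CAL27 culture, A431 culture and A431 tumors, and the ranges of neighbouring tables in that order overlapped throughout. As deposited, the means of CAL27 and SCC13 tumors were close, at -3.03 and -2.96. The deposited median was lower in SCC13 tumors, at -2.79 against -2.52 in CAL27 tumors. Divided by the column SD, GLTP stood at -1.23 ± 0.82 in CAL27 tumors, -0.93 ± 0.07 in CAL27 culture, -0.79 ± 0.32 in A431 culture, -0.57 ± 0.94 in SCC13 tumors and -0.21 ± 0.72 in A431 tumors, which moves SCC13 tumors behind both cultures.

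Some low GLTP values share a feature with other genes. In SCC13 tumors, 101 of the 120 pairs of columns held sets of at least 4 genes that differed between the columns by the same amount to 6 decimals, as did 6 of 45 pairs for CAL27 and 0 of 28 for A431. Such sets took in 8 to 145 of the 327 genes per column in SCC13 tumors and 0 to 16 in CAL27 tumors. GLTP belonged to such a set in value columns 4, 10, 11, 12, 13 and 15 of SCC13 and in value columns 6 and 7 of CAL27. The lowest GLTP values of SCC13, -4.91 and -4.66, are among them. DEGS1 was in no such set in any table. Neither gene shared an exact value with another gene in any of the 38 columns. What gives rise to the shared differences was not tested.

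Within the same tumor or culture, DEGS1 was above GLTP in all 38 columns. This comparison needs no centring, since both values come from 1 column. The difference ranged from 0.039 to 3.79 in A431 tumors (mean 1.31 ± 1.18, SD, n = 8), from 2.23 to 8.22 in CAL27 tumors (4.94 ± 1.94, n = 10) and from 1.38 to 8.62 in SCC13 tumors (5.41 ± 2.51, n = 16). In culture it was 1.05 and 1.02 in A431 and 0.77 and 0.56 in CAL27. The smallest gap was in value column 6 of A431, where both genes were close to the median at 0.21 and 0.17. Of 53301 possible gene pairs, 473 (0.887%) kept 1 gene on top in all 38 columns. DEGS1 was above 55 genes in every column, among them the growth factor receptor gene EGFR, the integrin gene ITGB1 and the DNA methyltransferase gene DNMT1, which are named after their values were seen. GLTP was below 2 genes in every column, DEGS1 and ADM.

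**Figure D3:**
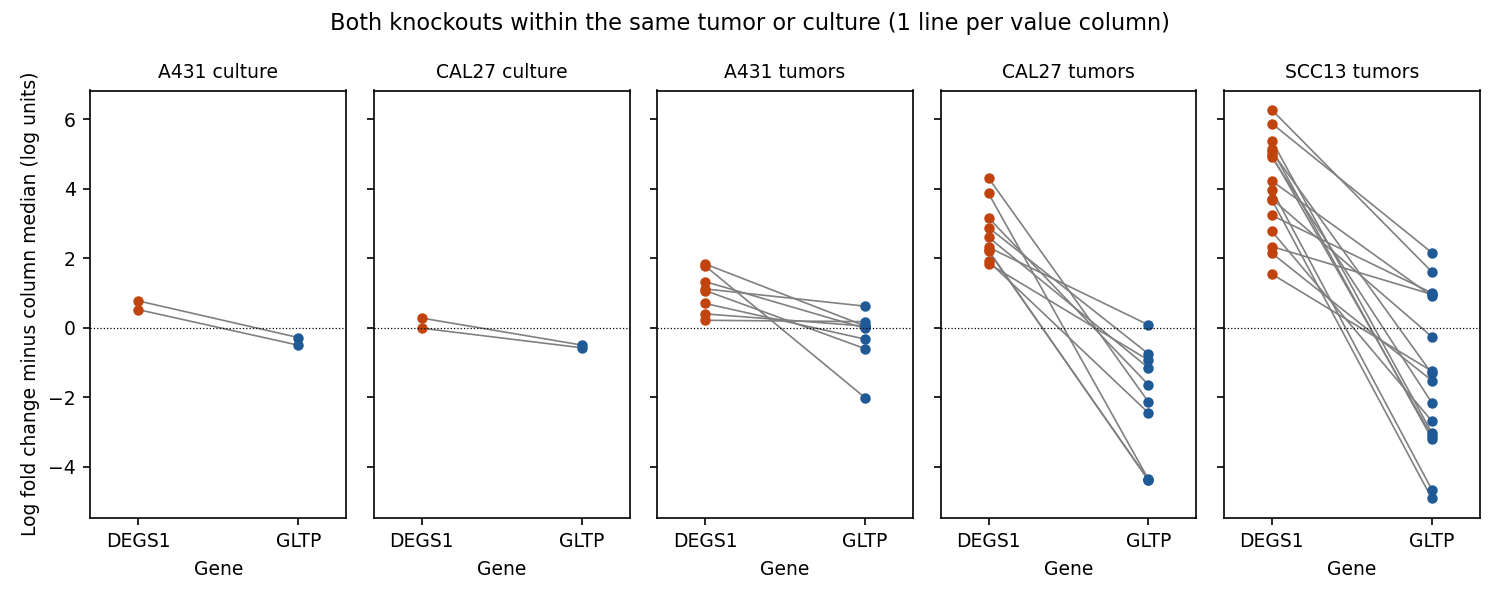
DEGS1 and GLTP values relative to the column median (log units) joined by 1 line per value column, 1 panel per table. All 38 lines slope down from DEGS1 to GLTP, by 0.039 to 3.79 in A431 tumors, 2.23 to 8.22 in CAL27 tumors and 1.38 to 8.62 in SCC13 tumors.

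High DEGS1 values did not go with low GLTP values in a uniform way. The within-table Pearson correlation of the pair was -0.44 over 8 A431 tumors, -0.13 over 10 CAL27 tumors and 0.09 over 16 SCC13 tumors. These are descriptions over columns that share their initial cells, and no test was run on them. The genes whose values varied most like those of DEGS1 from tumor to tumor were SBSN, CALML3 and BHLHE40. They were picked as the highest of all genes by mean correlation over the 3 lines, at 0.57, 0.49 and 0.45. In SCC13 tumors alone the correlations were 0.38, 0.30 and 0.16. SBSN encodes suprabasin of the differentiating epidermis, CALML3 a calmodulin-like protein of epithelium and BHLHE40 a transcriptional repressor. SBSN itself had a mean of -0.18 in A431, 1.35 in CAL27 and 0.41 in SCC13 tumors, so likeness in variation is not likeness in level. For GLTP the genes picked in this way were the spindle gene TPX2, the chromatin ATPase ATAD2 and the chromatin protein HMGB1. Their mean correlations were 0.55, 0.53 and 0.51. Within a line the lowest were 0.20 for TPX2 in SCC13 tumors and 0.16 for HMGB1 in CAL27 tumors. With columns divided by their SD, none of the 3 genes stayed for DEGS1, where PABPC1, DUT and SERPINB1 came first, and 2 of 3 stayed for GLTP.

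Of the lipid genes in a list of sphingolipid, barrier lipid, fatty acid, sterol and caveola genes, 10 were measured besides the pair. No other enzyme of ceramide synthesis from that list was among them. In limma fits over all genes of a table with Benjamini-Hochberg adjustment, 2 of 10 rose and none fell in A431 tumors, where 7.95% of all genes were higher and 11.9% lower. In CAL27 tumors 3 rose and 1 fell (18.7% and 22.0%), and in SCC13 tumors 3 rose and 1 fell (23.5% and 23.9%). In culture none rose, with none lower in A431 (11.3% of genes lower) and 1 lower in CAL27 (18.7%). The median of the list means was 0.17, 0.66 and 0.41 in A431, CAL27 and SCC13 tumors, beside 0.018, 0.0094 and -0.019 over all genes. With so few genes, the list is described by these counts only.

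The fatty acid binding protein gene FABP5, which carries lipids in the cytosol of keratinocytes, lay on the GLTP side. It fell to -1.55 ± 1.72 in CAL27 tumors (SD, n = 10, limma adjusted p = 0.00833), to -2.42 ± 1.66 in SCC13 tumors (n = 16, adjusted p = 5.02e-06) and to -0.89 ± 0.32 in CAL27 culture (n = 2, adjusted p = 0.038), and stood at -0.47 ± 0.75 in A431 tumors (adjusted p = 0.19). CAV1, the caveolin that coats cholesterol and sphingolipid rich pits of the plasma membrane, lay on the DEGS1 side in tumors. It rose to 0.75 ± 0.70 in A431 (n = 8, adjusted p = 0.043), 1.73 ± 1.08 in CAL27 (adjusted p = 0.000404) and 1.81 ± 1.40 in SCC13 tumors (adjusted p = 0.000434). PTRF, its partner cavin-1, rose to 0.84 ± 0.54 in A431 (adjusted p = 0.014) and 3.17 ± 1.77 in SCC13 tumors (adjusted p = 1.67e-08) and stood at 0.38 ± 0.85 in CAL27 tumors (adjusted p = 0.36). PLP2, a membrane proteolipid, and SREBF2, the master regulator of sterol synthesis, rose in CAL27 tumors to 2.28 ± 1.34 and 1.20 ± 1.03, and the tetraspan gene EMP2 rose in SCC13 tumors to 1.22 ± 1.87 (adjusted p = 7.77e-05, 0.00732 and 0.021). The CAV1 call in A431 was lost without value column 2, 3, 4, 6, 7 or 8 (adjusted p = 0.060 to 0.093), and the EMP2 call without SCC13 value column 6 or 13 (adjusted p = 0.086 and 0.053). PLP2 shared an exact value with another gene in 1 column. CAV2, the other caveolin of the list, was not called in tumors of any line. It stood at 0.12 ± 0.33, 0.58 ± 0.90 and 0.50 ± 2.08 in A431, CAL27 and SCC13 tumors (adjusted p = 0.68, 0.16 and 0.41). SREBF1 stood at 0.42 ± 0.89 in CAL27 tumors and -0.77 ± 2.30 in SCC13 tumors (adjusted p = 0.32 and 0.19). With the deposited values, none of the 10 rose in A431 tumors (2.14% of all genes did). CAV1 and PLP2 then rose in the CAL27 line (5.5%) and PTRF in the SCC13 line (3.98%), so the other calls of a rise rest on the centring. On that scale 6 of the 10 were lower in SCC13 tumors, where 67.3% of all genes were. CAV2, SREBF1 and SREBF2 were among them.

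**Figure D4:**
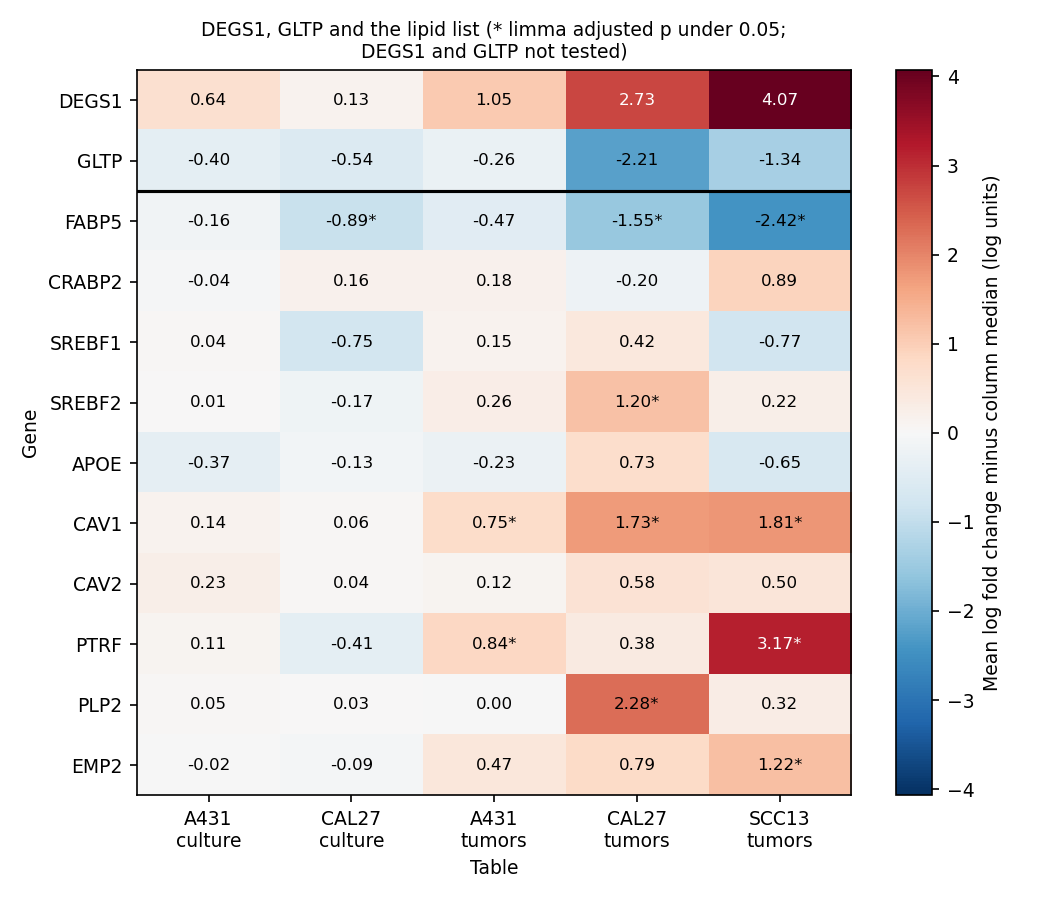
Mean log fold change relative to the column median (log units, colour and printed value) of DEGS1, GLTP and the 10 measured genes of the lipid list in the 5 tables; an asterisk marks a limma adjusted p under 0.05 for list genes, and DEGS1 and GLTP were not tested. DEGS1 at 4.07 in SCC13 and 2.73 in CAL27 tumors stands above each list gene in those tables, and FABP5 at -2.42 in SCC13 tumors stands below GLTP at -1.34.

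A pair of genes outside the list was picked after the values were seen, because of what they do, and their values are a description with no test. CYB5A encodes cytochrome b5, which passes electrons to desaturases such as DEGS1. Its mean was 0.19 ± 0.53, 0.06 ± 0.55 and -1.42 ± 1.37 in tumors of A431, CAL27 and SCC13. SULT2B1, the sulfotransferase that makes cholesterol sulfate in the epidermis, stood at -0.04 ± 0.52, 0.53 ± 1.87 and -1.45 ± 1.87 in the same order.

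DEGS1 and GLTP were set beside genes of keratinocyte differentiation, the program in which barrier lipids are made. Of 25 measured differentiation genes, 4 rose and 1 fell in A431 tumors, 11 rose and 1 fell in CAL27 tumors and 10 rose and 1 fell in SCC13 tumors, against the shares of all genes given above. Without value column 1, 3, 5 or 7 the count of higher genes in A431 tumors was 2, with DMKN and DSC2 lost. The list medians were 0.12, 0.53 and 0.89. CALML3 and NOTCH3 rose in the tumors of all 3 lines. CALML3 rose to 0.96 ± 0.32, 1.38 ± 1.36 and 2.92 ± 1.35 (adjusted p = 0.00264, 0.00704 and 5.21e-08), and the receptor NOTCH3 to 1.66 ± 0.68, 1.88 ± 0.53 and 1.72 ± 1.71 (adjusted p = 0.000299, 2.35e-05 and 0.00104). With the deposited values the CALML3 call in CAL27 tumors was lost, at 0.57 ± 1.14 (adjusted p = 0.19), and so was the NOTCH3 call in SCC13 tumors, at 0.10 ± 1.60 (adjusted p = 0.85), so both rest on the centring. The calcium-binding S100A8 was the gene that fell in A431 tumors, at -1.44 ± 1.44 (adjusted p = 0.021, and 0.060 without value column 4), and FABP5, which is in both lists, fell in the others. DEGS1 had a higher mean than each of the 25 in CAL27 and SCC13 tumors, and GLTP a lower mean than each of them in CAL27 tumors. In culture the serpin gene SERPINB4 was the 1 of 25 that rose in A431 at 0.77 ± 0.07 (adjusted p = 0.021), with none lower (2.14% of all genes were higher). CSTA, DSG1, LGALS7 and SERPINB3 rose in CAL27 culture, where 4.89% of all genes did, and FABP5 fell. LGALS7 and LGALS7B are near-identical copies, and which of them their guides cut was not analysed here. Their values differed in places. In CAL27 culture LGALS7 stood at 0.41 ± 0.0067 and LGALS7B at -0.41 ± 0.16 (adjusted p = 0.037 and 0.057). In SCC13 tumors they stood at 1.09 ± 1.23 and 0.16 ± 1.78 (adjusted p = 0.032 and 0.81). The LGALS7 call in SCC13 tumors was lost without value column 1, 10, 13, 14 or 16 (adjusted p = 0.053 to 0.073). It was also lost with the deposited values, at -0.53 ± 1.09 (adjusted p = 0.31). In CAL27 tumors both rose, to 1.69 ± 0.72 and 1.85 ± 0.87.

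The direction of the list counts depends on the scale. With the deposited values CALML3 was the 1 differentiation gene that rose in SCC13 tumors while 12 of 25 fell, where 67.3% of all genes were lower. The share of all genes lower on that scale was 22.3% in A431 tumors, 50.2% in CAL27 tumors, 41.6% in A431 culture and 89.6% in CAL27 culture. The share higher was 0.306% in A431 culture and 0.0% in CAL27 culture, where the calls of a rise for CSTA, DSG1, LGALS7 and SERPINB3 were lost.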

How the data were processed

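For each line and setting the authors deposited a table, 5 in all, of log fold changes per gene relative to the non-targeting guides. Bowtie2 was used, per the submitters' processing notes. Its version, the log base, the pseudocount and the rule that combined guides into genes are not stated there, and neither is a genome build. The 48 samples form 10 groups. Each of the 38 later samples corresponds to 1 value column, and columns have no replicate number. Columns were centred on their median over 327 genes, with no filter on low values. List genes were tested against 0 in each table by limma 3.58.1 (R 4.3.3, intercept only, eBayes, Benjamini-Hochberg over all genes, threshold 0.05). The fit was also run on simulated normal values, drawn independently for each gene and column. Those values lacked the shared initial cells and shared differences of the data, so that run cannot vouch for the p-values given. Every column of a table has the initial cells as its reference, so their error enters no test, and p-values cover only the spread among the tumors or cultures of a table. The pair, the lists and the naming rule (list members, neighbours in the order of means, the 3 most similar genes by mean within-line Pearson correlation) were chosen with earlier results of these data known. Alternatives were the deposited values, medians, Spearman correlation, division by the column SD, robust eBayes with a trend, leaving out genes with ties, and leaving out each column.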

Additional observations from a re-analysis of the deposited data

Results flagged for a closer look

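In A431 tumors, value column 2 stood apart from the other 7 for GLTP, at -2.02 log units, and for DEGS1 minus GLTP, at 3.79. In both cases the gap to the nearest tumor was 0.54 of the whole range. Both draw on the same low GLTP value. The same share, taken at the end of the range with the larger gap, was 0.11 for DEGS1 in A431 tumors. In CAL27 tumors it was 0.18 for DEGS1, 0.19 for GLTP and 0.27 for their difference. SCC13 tumors were not looked at in this way. The genes were chosen with their values known, so this is a flag and not a test. Relative to the non-targeting guides, DEGS1 was above 0 in both A431 cultures (3.67% of genes) and below 0 in both CAL27 cultures (95.7% of genes). The difference in means was 0.63. The column medians also differed, at -0.37 to -0.36 in A431 culture and -0.49 to -0.47 in CAL27 culture. DEGS1 was above 0 in all 10 CAL27 tumors (0.917% of genes), a difference of 2.27 from CAL27 culture. These differences were not tested.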

How the results depend on the processing

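No paired analysis was possible because the value columns carry no replicate numbers. With deposited values the DEGS1 mean was 2.45 in SCC13 tumors, 0.28 in A431 culture and -0.35 in CAL27 culture, where it changed sign, and the GLTP mean was -0.76 in A431 and -1.02 in CAL27 culture. The median over columns put GLTP in A431 tumors at 0.012. Without 1 column at a time, the sign changed for the DEGS1 mean in CAL27 culture alone (-0.018 to 0.27) among the means and differences of the pair.

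With deposited values, differentiation genes higher and lower were 2 and 3 in A431 tumors, 5 and 6 in CAL27 tumors, 1 and 12 in SCC13 tumors and 0 and 18 in CAL27 culture, and 3 were lower in A431 culture. Lipid genes higher and lower were then 0 and 1 in A431 tumors and 1 and 6 in SCC13 tumors, and 2 were lower in CAL27 tumors, 3 in A431 culture and 10 in CAL27 culture. Of all 327 genes, 73 were then lower in A431 tumors, 164 in CAL27 tumors, 220 in SCC13 tumors, 136 in A431 culture and 293 in CAL27 culture. Robust eBayes with a trend gave 2 higher differentiation genes in A431 culture, where 16 of all genes were higher and 41 lower. In CAL27 tumors it gave 5 higher lipid genes, where 66 of all genes were higher and 68 lower. In CAL27 culture it gave 9 higher and 2 lower differentiation genes and 3 lower lipid genes. There 44 of all genes were higher and 84 lower. Leaving out genes with ties gave 6 higher and 2 lower differentiation genes and 3 lower lipid genes in CAL27 culture, and the genes higher among all tested went from 16 to 31 and those lower from 61 to 80. Without 1 column at a time, A431 tumors had 2 to 4 differentiation genes higher and 0 to 2 lower. Lipid genes there were 1 to 2 higher and 0 to 1 lower, and of all genes 14 to 20 were higher and 24 to 33 lower. CAL27 tumors had 10 to 11 differentiation and 3 to 4 lipid genes higher, beside 53 to 62 of all genes. SCC13 tumors had 8 to 11 and 2 to 3 higher, beside 68 to 77 of all genes. With 1 culture left a table has no spread, so no list was tested there. The causes of these changes were not tested. Depth is unknown and limits the values to an unknown degree.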
